A study of Mus musculus and Acomys cahirinus with 25 samples.

Results

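Krt6a, Krt6b, Krt16 and Krt17, the keratins that skin switches on after wounding, were read from the RNA-seq counts of all 25 libraries of a study of wound-induced hair neogenesis. They were chosen by symbol and are 4 of the 24500 gene symbols in each count file, and every file held all 4. Their levels are given as CPM, the reads of a gene scaled to a fixed total of reads counted on all genes of that library. The number of reads, not the amount of protein, was measured.

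Keratins build the intermediate filaments of epithelial cells, and a filament needs a type II keratin paired with a type I keratin. Krt6a and Krt6b are type II keratins, and Krt16 and Krt17 are type I keratins that can pair with them. In resting skin these genes are known mainly from the hair follicle, above all its outer root sheath and companion layer, and after wounding the keratinocytes of the epidermis between the follicles express them as they divide and migrate. Krt14, a type I keratin, and Krt5, its type II partner, mark the basal keratinocytes and serve here as the reference for how much keratinocyte RNA a library held.

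The laboratory mouse libraries came from wounds at post-wound day (PWD) 14 in mice wounded at 4 weeks of age. The study lists C57BL/6J mice, K14-Cre-Twist1 mice and Twist1+/+ mice, and gives no background strain for the Twist1 lines. Wild-type (WT) epidermis was taken from the wound center in 2 libraries and from the wound margin in 2, and WT dermis from the center in 5 and from the margin in 2. The remaining 2 were center dermis of K14-Cre-Twist1 mice (labeled KO), a Twist1 conditional null crossed with a Cre that the keratin 14 promoter drives in keratinocytes, so the deletion is in the epithelium and the libraries are of the tissue below it. Center dermis libraries 1 and 2 were compared with the margin, and libraries 3 to 5 with the KO, as the library names in the study group them; its controls for the KO were Twist1+/+ mice. The center was a punch from the middle of the wound, the margin was what remained, and the layers were separated by hand. The spiny mice (Acomys cahirinus, 2 months old) gave whole skin or whole wounds, separated with trypsin, at PWD0, PWD14, PWD21 and PWD28, with 1, 2, 2 and 1 libraries of epidermis and 2, 1, 2 and 1 libraries of dermis. PWD0 is unwounded skin. The days are those of the labels, and the study's own sample list gives slightly different days for the wounded spiny mouse libraries. All spiny mouse libraries are labeled WT, and no library carried a drug treatment in its label.

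Reads on genes ran from 19413261 to 86532134 in laboratory mouse libraries and from 5669760 to 34751956 in spiny mouse libraries. Reads were 75 bases long, paired in laboratory mouse epidermis and single in laboratory mouse dermis, so in that species layer and read type cannot be told apart. Spiny mouse reads were aligned to the laboratory mouse genome, and low alignment quality set aside 38.0 to 60.5% of the reads there against 23.3 to 34.4% in laboratory mice, so levels are not compared between the species. Marker genes told the layers apart, but keratinocyte markers were also read in dermis. In the laboratory mouse 12 keratinocyte markers summed to 155241 to 214311 CPM in epidermis, and 10 fibroblast markers to between 72969.8 and 144259 CPM in dermis. The fibroblast markers summed to 662 to 5043 CPM in laboratory mouse epidermis and 269 to 537 CPM in spiny mouse epidermis. In laboratory mouse dermis the keratinocyte markers summed to 89.6 to 796 CPM in the WT center, 2408 and 4687 CPM at the margin and 1117 and 35118 CPM in the KO. In spiny mouse dermis they were highest in unwounded skin, at 6536 and 8424 CPM. No replicate pair agreed within counting noise (chi-square per degree of freedom 28.3 to 375). Replicates are independent duplicates per the study's methods, and p-values measure the spread between the libraries at hand.

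How far the reads of these genes can be told apart depends on their sequence. The genes sit in the keratin clusters of chromosomes 15 and 11, all on the minus strand (GRCm38, GENCODE M21): Krt6a at chr15:101689910-101694307 and Krt6b at chr15:101676023-101680287, each with 9 exons, and Krt16 at chr11:100246091-100248902 and Krt17 at chr11:100256217-100261029, each with 8 exons. The coding sequences of Krt6a and Krt6b were identical at 97.8% of aligned bases, with 37 mismatches and an identical run of up to 280 bases, longer than a read. The following windows have the length of a read and come from the coding strand of the GENCODE transcripts; they show the least and the most that separates each pair, and capitals mark mismatches. Coding bases 34 to 108 are the same in Krt6a and Krt6b, while bases 802 to 876 hold 12 mismatches, the most in any such window of this pair.

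Krt6a and Krt6b, bases 34 to 108: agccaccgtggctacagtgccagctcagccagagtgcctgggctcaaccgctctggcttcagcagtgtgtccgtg

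Krt6a, bases 802 to 876: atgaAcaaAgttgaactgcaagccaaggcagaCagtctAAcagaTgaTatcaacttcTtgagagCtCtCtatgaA

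Krt6b, bases 802 to 876: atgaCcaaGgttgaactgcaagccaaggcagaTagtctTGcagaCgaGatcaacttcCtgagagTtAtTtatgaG

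The type I pair is further apart, with 77.6% identity between Krt16 and Krt17. Their most alike window had 3 mismatches, and their least alike window had 28.

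Krt16, bases 1179 to 1253: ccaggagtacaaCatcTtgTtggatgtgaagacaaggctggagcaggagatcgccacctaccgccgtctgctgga

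Krt17, bases 1092 to 1166: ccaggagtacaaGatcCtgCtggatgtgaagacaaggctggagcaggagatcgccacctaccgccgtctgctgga

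Krt16, bases 934 to 1008: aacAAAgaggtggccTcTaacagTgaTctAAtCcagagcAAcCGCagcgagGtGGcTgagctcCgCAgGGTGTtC

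Krt17, bases 847 to 921: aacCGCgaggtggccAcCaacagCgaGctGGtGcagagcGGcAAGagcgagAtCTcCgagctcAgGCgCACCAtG

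Of the 2204 windows of 75 bases in the Krt6a transcript, matched on either strand, 797 were also found in Krt6b, and 56.0% were found in a transcript of some other gene. The same held for 39.6% of Krt6b windows and 28.9% of Krt16 windows, the latter shared with the pseudogene Gm11597 (335 windows) and with Krt14 (96 windows). None of the 1477 windows of Krt17 was found in another gene. The counts of Krt6a and Krt6b are therefore uncertain as a split between the pair, and those of Krt17 are the least affected. In spiny mouse libraries the reads carry the spiny mouse sequence, so which paralog a read matched best was not tested.

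In laboratory mouse wounds Krt6a, Krt6b and Krt16 were far higher in epidermis than in dermis, and Krt17 was in the center but not at the margin. Within the epidermis every one of the 4 was higher in both center libraries than in both margin libraries, though none passed the test. The question of this comparison is how the hair-forming center differs from the margin.

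**Figure D1:**
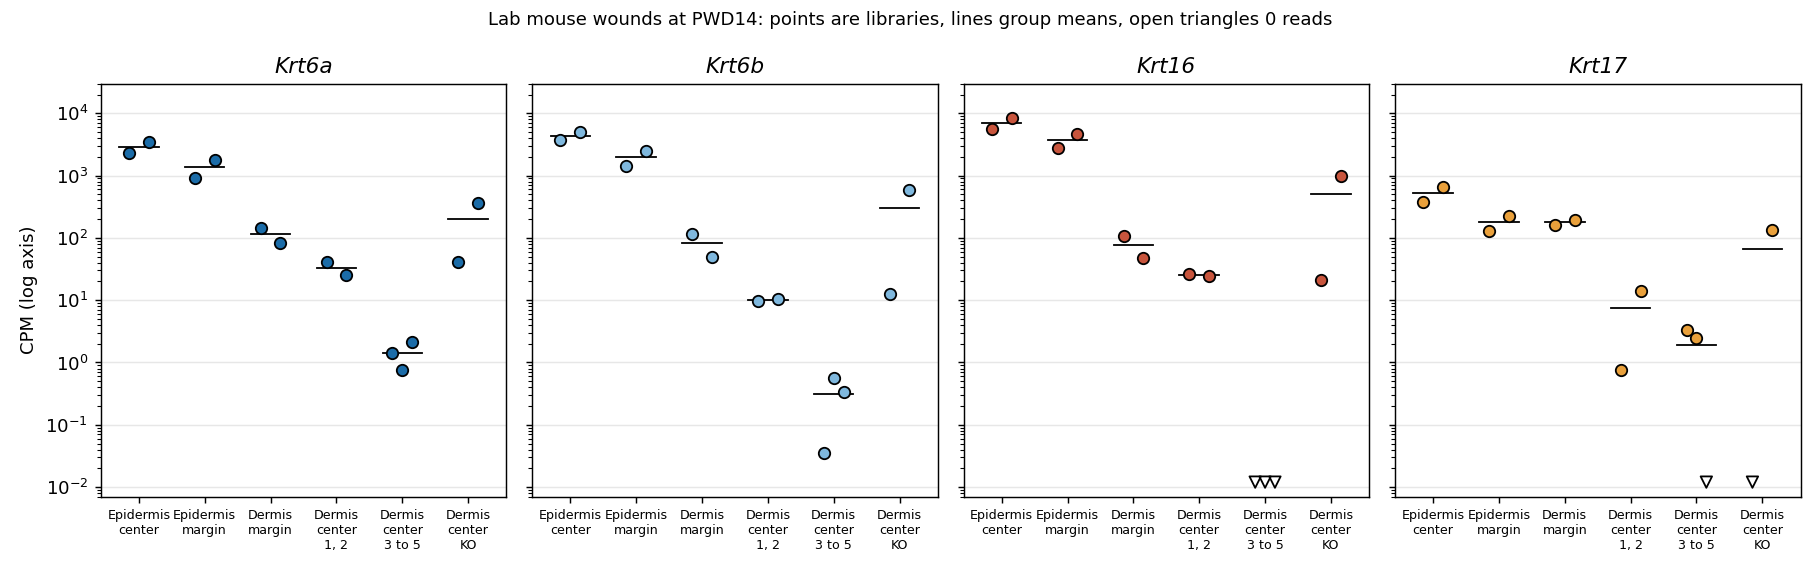
CPM of each keratin on a log axis in the laboratory mouse libraries at PWD14, by layer, region and genotype; points are libraries, lines are group means and open triangles are libraries with 0 reads. For Krt6a, Krt6b and Krt16 epidermis lies highest and center dermis libraries 3 to 5 lowest, Krt17 at the margin overlaps between the layers, and the 2 KO dermis libraries are spread widely.

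Krt16, the type I partner of the Krt6 keratins, was the highest of them by CPM and per transcript length, with 5703 and 8429 CPM in the center epidermis and 2751 and 4731 CPM in the margin. Krt6b had 3695 and 4952 CPM in the center and 1448 and 2466 CPM in the margin, and Krt6a 2272 and 3438 CPM against 917 and 1813 CPM. Krt17 had 384 and 669 CPM in the center and 131 and 226 CPM in the margin. For each of the 4 genes the lower center library lay above the higher margin library, so the groups did not overlap. How many of all genes separate in this way, with so few libraries a group, was not counted here or in later comparisons.

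By edgeR's quasi-likelihood test across 14165 genes, none of the 4 differences passed an FDR of 0.05, the threshold used throughout, and 1.24% of all genes tested did. At an unadjusted p under 0.05 in the same edgeR fit there were 2 of the 4, Krt6b and Krt17, and 3328 of all 14165 genes tested. The log2 fold changes, center over margin, were 0.99 ± 0.41 for Krt6a (SE; FDR = 0.218), 1.06 ± 0.37 for Krt6b (FDR = 0.171), 0.83 ± 0.41 for Krt16 (FDR = 0.281) and 1.48 ± 0.38 for Krt17 (FDR = 0.118). The margin libraries differed by a factor close to that between the regions. With margin library 1 left out all 4 genes passed, with Krt17 at 1.20 (FDR = 0.000636), and with margin library 2 left out all 4 passed as well, with Krt17 at 1.86 (FDR = 7.85e-09), but each then rests on 1 margin library and 5508 and 7405 genes were called. With DESeq2, Krt6b (FDR = 0.0205) and Krt17 (FDR = 0.00309) passed.

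Krt14 was also higher in both center libraries, with 9972 and 11970.4 CPM in the center and 3200.2 and 7072 CPM in the margin. Per 100 reads of Krt14 there were 57.2 and 70.4 reads of Krt16 in the center and 86.0 and 66.9 in the margin, so relative to Krt14 the regions overlapped. Krt17 had 3.85 and 5.59 reads per 100 reads of Krt14 in the center and 4.09 and 3.19 in the margin, which also overlapped. Relative to Krt5 the regions did not overlap. Krt5 itself had 6787 and 6661 CPM in the center and 5122 and 8858 CPM in the margin, and per 100 reads of Krt5 there were 84.0 and 127 reads of Krt16 in the center and 53.7 and 53.4 in the margin. Krt17 had 5.65 and 10.04 reads per 100 reads of Krt5 in the center and 2.55 in both margin libraries, so the choice of basal keratin decides whether the regions overlap.

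The 12 keratinocyte markers together did not separate the regions, at 162178 and 171268 CPM in the center and 155241 and 214311 CPM in the margin. Fibroblast markers did, with sums of 5043 and 4184 CPM in the center and 1969 and 662 CPM in the margin, and 1 of the 10, Pdgfrb, a growth factor receptor of fibroblasts and pericytes, rose (edgeR, log2 3.45, FDR = 0.0367). Of the 5 adipocyte markers Fabp4, a fatty acid binding protein, was the 1 above 0, and it rose from 66.9 and 35.5 CPM in the margin to 430 and 554 CPM in the center (FDR = 0.0394). Their part in the keratin levels was not tested.

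In the dermis the direction was the opposite, and all 4 keratins were lower in the center than in the margin. In center dermis libraries 1 and 2, Krt17 had 0.770 and 14.2 CPM, and in the margin 160 and 196 CPM. Krt6b had 9.56 and 10.3 CPM in the center and 116 and 49.7 CPM in the margin. The groups did not overlap for either gene.

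Krt17 fell by 4.55 ± 0.51 on the log2 scale (edgeR, FDR = 0.00249) and Krt6b fell by 2.98 ± 0.48 (FDR = 0.0154), 2 of 4 genes, where 0.850% of the 14698 genes tested passed and 0.735% passed as lower. Krt6a had 41.0 and 25.1 CPM in the center against 147 and 82.6 CPM in the margin, a log2 difference of -1.70 ± 0.36 (FDR = 0.0666). Krt16 had 26.4 and 24.8 CPM against 106 and 48.4 CPM, a log2 difference of -1.51 ± 0.39 (FDR = 0.130). Their groups did not overlap either, but neither passed, and Krt6a passed without center library 1 (-2.15, FDR = 0.0380). Without margin library 1 the Krt6b value was -2.19 (FDR = 0.305), and without center library 2 the Krt17 value was -7.71 (FDR = 6.97e-05), since that library holds most of the Krt17 reads of the center. Without center library 1 it was -3.59 (FDR = 0.000804). No member passed with the quasi-likelihood estimate of edgeR 3, or with all laboratory mouse libraries in one fit, and with DESeq2 Krt17 did not (FDR = 0.0720) while the other 3 did.

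Where 0.735% of all genes passed as lower, 6 of the 12 keratinocyte markers fell in these center dermis libraries, and none rose. They summed to 546 and 796 CPM in center libraries 1 and 2, with 1 and 2 of them at 0, and to 2408 and 4687 CPM in the margin, with none at 0. The 13 genes of the companion layer and inner root sheath of the hair follicle summed to 969 and 971 CPM in the margin and to 41.9 to 55.1 CPM over all center WT libraries. Of these 13 genes, 7 to 12 were at 0 in the center WT libraries and 0 to 1 in the margin. Krt27, an inner root sheath keratin, had 114 and 117 CPM in the margin and 0 in center libraries 1 and 2. Their part in the fall of Krt17 and Krt6b was not tested, and in bulk tissue fewer cells of a type and less RNA per cell cannot be told apart.

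The center-margin difference itself differed between epidermis and dermis. In 1 fit of the 8 libraries, the log2 difference in epidermis exceeded that in dermis by 6.15 ± 0.95 for Krt17 (edgeR interaction term, FDR = 0.00613), 4.18 ± 0.69 for Krt6b (FDR = 0.00824) and 2.82 ± 0.64 for Krt6a (FDR = 0.0378), 3 of 4 genes where 3.48% of 15531 genes passed and 3.34% with a positive sign. For Krt16 it was 2.48 ± 0.71 (FDR = 0.0963). The median over all genes tested in this fit was 0.31. The Krt6a call was lost when any 1 library other than margin epidermis 2 was left out (FDR = 0.0579 to 0.218), and the Krt6b call when center dermis 1 (FDR = 0.0645) or 2 (FDR = 0.0538) was, while Krt16 passed without margin epidermis 2 (FDR = 0.0322). With all laboratory mouse libraries in one fit none of the 4 passed, and with the edgeR 3 estimate 1 did, Krt6b (FDR = 0.0171).

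Between the layers of the center, Krt6b was 750-fold higher in epidermis (log2 9.55 ± 0.37, edgeR, FDR = 0.000165), Krt16 474-fold (FDR = 0.000202), Krt6a 148-fold (FDR = 0.000324) and Krt17 125-fold (FDR = 0.00791). All 4 passed, but so did 56.1% of the 14329 genes tested, with 29.3% passing as higher in epidermis. The Krt17 value was a log2 difference of 10.20 without center dermis library 2 and 6.06 without library 1. At the margin Krt16 was 84.3-fold (FDR = 0.000111), Krt6b 41.1-fold (FDR = 9.84e-05) and Krt6a 20.7-fold (FDR = 0.000127) higher in epidermis, with 47.7% of 14964 genes passing and 20.9% passing as higher. Krt17 did not pass there, at 1.77-fold (FDR = 0.0619), and its levels of 131 and 226 CPM in epidermis overlapped the 160 and 196 CPM in dermis. Without margin epidermis library 1 it passed (log2 1.11, FDR = 0.00483). When libraries were scaled to their size alone, the median of all genes at the margin moved to -0.98 and that of Krt17 to 0.0035.

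In the KO comparison, which asks how the dermis of the wound center differs when Twist1 is missing from the keratinocytes above it, Krt6a, Krt6b and Krt16 were higher in both KO dermis libraries than in all 3 WT libraries, and 1 of them passed the test. Twist1 itself had 73.4 and 44.0 CPM in the KO and 57.7, 36.3 and 105 CPM in WT libraries 3 to 5, which does not check the deletion because these are dermis libraries. Krt6a had 40.4 and 366 CPM in the KO and 1.43, 0.756 and 2.13 CPM in WT. Krt6b had 12.7 and 597 CPM in the KO and 0.0349, 0.554 and 0.342 CPM in WT, from 1, 11 and 9 reads. Both KO libraries lay above all 3 WT libraries for both genes.

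Krt16 had 0 reads in all 3 WT libraries and 21.3 and 975 CPM in the KO. Against the 3 reads taken as the smallest detectable amount, at most 0.151 CPM in these WT libraries, the KO mean was at least 3295-fold higher and KO library 1 alone at least 141-fold higher. Such floors cover counting error only. Krt17 had 0 and 133 CPM in the KO and 3.32, 2.47 and 0 CPM in WT, so its groups overlapped.

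Krt6a was the only member that passed, at a log2 fold change of 7.05 ± 0.91 (edgeR, FDR = 0.0474), where 8 genes, 0.0565% of 14163 tested, passed and 0.0494% passed as higher. Krt6b had 10.01 ± 1.65 (FDR = 0.117), Krt17 5.07 ± 1.50 (FDR = 0.277), and the Krt16 test gave FDR = 0.254. The Krt6a call was lost without WT library 3 (FDR = 0.739), 4 (FDR = 0.466) or 5 (FDR = 0.313). Against all 5 WT center dermis libraries the Krt6a value was 3.89 (FDR = 0.0862) and Krt6b was called instead (6.28, FDR = 0.0153), and DESeq2 called Krt6a, Krt6b and Krt16.

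The KO libraries differed in their keratinocyte RNA. KO library 2 held 35118 CPM of the 12 keratinocyte markers and 4707 CPM of Krt14, and KO library 1 held 1117 and 398 CPM. In WT libraries 3 to 5 the marker sum was 89.6 to 177 CPM, with 3 to 5 of the 12 markers at 0, and Krt14 was 1.08 to 6.72 CPM. Krt14 was the only gene of the other keratin list called, at a log2 fold change of 9.42 (FDR = 0.0474). All 11 tested genes of that list had estimates above 0, with a median of 7.52. All 11 tested keratinocyte markers did too, with a median of 9.42, and Krt14 is in both lists. The median over all genes tested was -0.07. In each list 10 had an unadjusted p under 0.05 in edgeR, as did 1631 of all 14163 genes tested. Without KO library 2 the Krt6a value was 4.78 (FDR = 0.00808) and without KO library 1 it was 7.88 (FDR = 7.57e-07), and without KO library 1 all 4 keratins passed. Per 100 reads of Krt14, Krt6a had 10.1 and 7.78 reads in the KO and 24.6 to 132 in WT libraries 3 to 5, where Krt14 rests on 31 to 177 reads. Per 100 reads of Krt5 the groups overlapped, at 22.1 and 11.8 reads of Krt6a in the KO and 45.1, 27.8 and 10.9 in WT. The part of keratinocyte RNA in this difference was not tested.

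Center dermis libraries 1 and 2, which the study set against the margin, held more Krt6a, Krt6b and Krt16 than libraries 3 to 5. Krt6a was 25.1 and 41.0 CPM in the former and 0.756 to 2.13 CPM in the latter, and Krt14 was 38.4 and 244 CPM against 1.08 to 6.72 CPM. KO library 1, with 40.4 CPM of Krt6a, 21.3 CPM of Krt16 and 398 CPM of Krt14, lay close to center WT libraries 1 and 2 for Krt6a and Krt16.

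In the spiny mouse epidermis Krt6a, Krt16 and Krt17 were highest at PWD14 and lower at PWD21, and at PWD28 they were within a factor of 3 of the 1 unwounded library, a difference that was not tested. Krt6b was highest at PWD21. The spiny mouse comparisons follow how the whole wound changes over time.

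**Figure D2:**
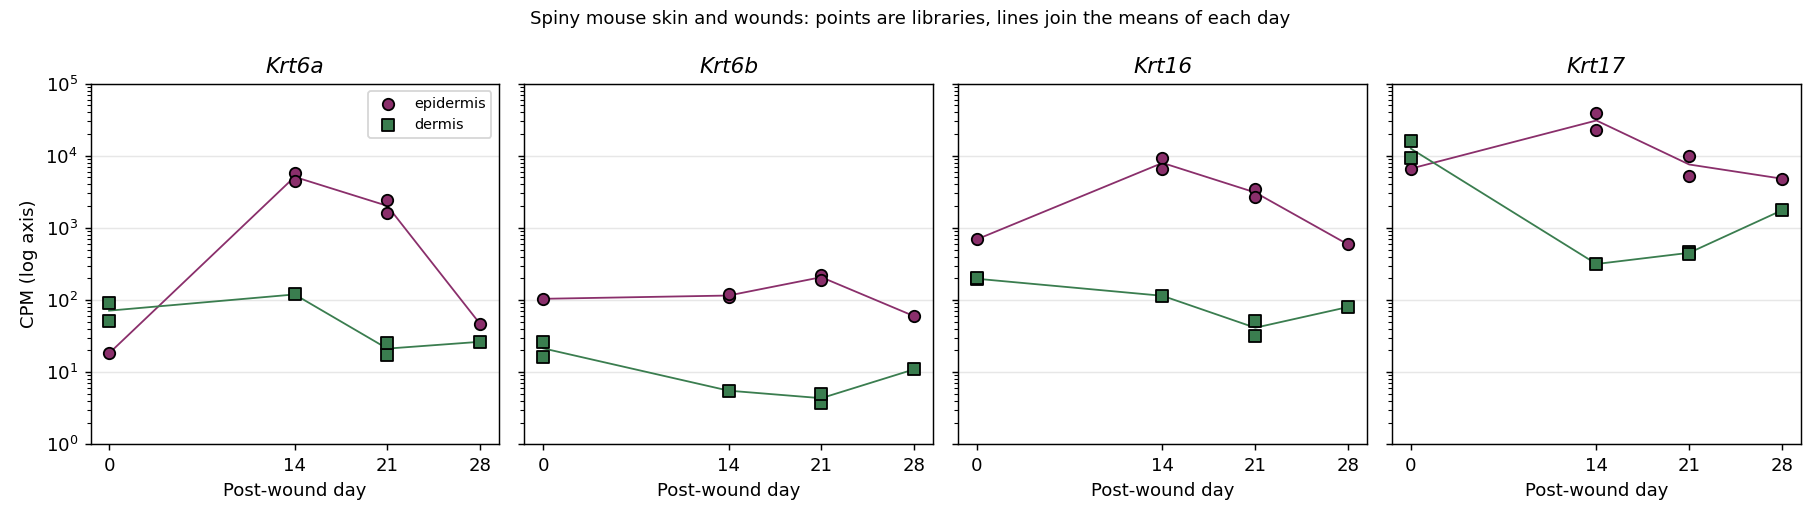
CPM of each keratin on a log axis against post-wound day in spiny mouse epidermis (circles) and dermis (squares); points are libraries and lines join the means of each day. Epidermal Krt6a, Krt16 and Krt17 are highest at PWD14, and dermal Krt17 is highest in unwounded skin.

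Krt6a moved over the widest range, from 18.2 CPM (193 reads) at PWD0 to 5760.4 and 4432 CPM at PWD14, 2407 and 1631 CPM at PWD21 and 46.5 CPM at PWD28. Krt16 had 695 CPM at PWD0, 9430.05 and 6482 CPM at PWD14, 3506 and 2684 CPM at PWD21 and 589 CPM at PWD28. Krt17 had 6636 CPM at PWD0, 39123 and 22537 CPM at PWD14, 9835 and 5293 CPM at PWD21 and 4809 CPM at PWD28. At PWD14 Krt17 had ranks 2 and 4 among all genes of the respective libraries by read count.

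From PWD14 to PWD21 the fall was tested with 2 libraries on each day, and none of the 3 genes overlapped between the days. PWD14 exceeded PWD21 by a log2 fold change of 2.58 ± 0.34 for Krt17 (edgeR, FDR = 0.000208), 1.92 ± 0.24 for Krt16 (FDR = 0.000141) and 1.89 ± 0.23 for Krt6a (FDR = 0.000143). They were 3 of 4 members, where 46.6% of 12889 genes passed and 23.4% passed as higher, and Krt17 had rank 80 among the genes tested by log2 fold change. All 3 passed under every alternative run for this comparison.

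Krt6b took another course, with 104 CPM at PWD0, 109 and 122 CPM at PWD14, 223 and 191 CPM at PWD21 and 59.7 CPM at PWD28. Its PWD14 libraries lay below its PWD21 libraries in CPM. The log2 difference, PWD14 over PWD21, was -0.30 ± 0.16 (FDR = 0.156) with the TMM scaling of edgeR, and -0.85 (FDR = 0.00171) when libraries were scaled to their size alone, which moved the median of all genes to -0.59.

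Against the 1 unwounded library, PWD14 was higher by 462-fold for Krt6a (edgeR, FDR = 2.62e-06), 19.0-fold for Krt16 (FDR = 1.68e-05) and 7.71-fold for Krt17 (FDR = 0.0005), and PWD21 by 126-fold for Krt6a (FDR = 1.32e-05) and 5.07-fold for Krt16 (FDR = 0.000571). The test assumes that PWD0 varies like the other days. Krt17 at PWD21 was 1.30-fold the PWD0 level (FDR = 0.515), and the 9835 and 5293 CPM of PWD21 lay on both sides of 6636 CPM. Krt6b passed at PWD14 (1.83-fold, FDR = 0.00693) and PWD21 (2.27-fold, FDR = 0.00323), but both calls were lost with all spiny mouse libraries in one fit (FDR = 0.0880 at PWD14 and 0.0604 at PWD21). The PWD14 call was also lost when libraries were scaled to their size alone, which gave a log2 fold change of 0.15 (FDR = 0.568) and moved the median of all genes to -0.86. All 4 members passed at PWD14, where 48.8% of 14336 genes did and 22.7% as higher, and 3 at PWD21, where 28.7% did and 13.4% as higher.

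Krt14 also rose in these epidermis libraries, from 5003 CPM at PWD0 to 46374 and 37037 CPM at PWD14 and 19073 and 15598 CPM at PWD21, and it had 4933 CPM at PWD28 (edgeR, FDR = 1.71e-05 for PWD14 and 0.000868 for PWD21 against PWD0). Krt16 followed it closely, at 11.9 to 20.3 reads per 100 reads of Krt14 over the 6 epidermis libraries. The laboratory mouse coding sequences of Krt16 and Krt14 were identical at 86.4% of aligned bases, and the transcripts share 96 read-length windows. Whether reads that match both add to this likeness was not tested. Krt6a did not, at 0.364 reads per 100 reads of Krt14 at PWD0, 0.943 at PWD28 and 10.5 to 12.6 at PWD14 and PWD21. Krt17 had 133 reads per 100 reads of Krt14 at PWD0, 97.5 at PWD28 and 33.9 to 84.4 on the wound days between, so it was lower relative to Krt14 at PWD14 and PWD21 while its CPM at PWD14 was higher.

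Krt5 moved much less than Krt14, from 8799.9 CPM at PWD0 to 9621 and 9722 CPM at PWD14, and relative to it Krt17 was higher at PWD14. Krt17 had 75.4 reads per 100 reads of Krt5 in the unwounded library, 407 and 232 in those of PWD14, 79.2 and 44.7 in those of PWD21 and 85.7 in that of PWD28. Krt16 had 7.89 reads per 100 reads of Krt5 in the unwounded library, 98.0 and 66.7 in those of PWD14, 28.2 and 22.7 in those of PWD21 and 10.5 in that of PWD28. The direction of Krt17 against the basal keratins at PWD14 thus depends on which of the pair is used.

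The 12 keratinocyte markers summed to 50861 CPM at PWD0, 78062 to 83654 CPM at PWD14 and PWD21 and 40254 CPM at PWD28. All 5 sebocyte markers were lower at PWD14 than at PWD0 in edgeR, where 48.8% of all genes passed. These 5 summed to 941 CPM at PWD0, 127 and 47.2 CPM at PWD14, 261 and 268 CPM at PWD21 and 488 CPM at PWD28. Of the adipocyte markers Fabp4 rose from 27.9 CPM at PWD0 to 6302 and 5159 CPM at PWD14 (FDR = 2.05e-06), while Cidec, a lipid droplet protein, fell (FDR = 0.00133) and Adipoq, Plin1 and Lep stayed under 1 CPM in all 6 epidermis libraries. Their part in the keratin levels was not tested.

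In the spiny mouse dermis Krt17 was abundant before wounding and far lower in the wound. It had 15772 and 9280.5 CPM at PWD0, rank 5 among all genes in both libraries, 316 CPM at PWD14, 470.2 and 432 CPM at PWD21 and 1753 CPM at PWD28. The unwounded dermis thus held more Krt17 in CPM than the unwounded epidermis, at 6636 CPM. Krt16 had 193 and 201 CPM at PWD0, 114 CPM at PWD14, 31.8 and 50.6 CPM at PWD21 and 79.9 CPM at PWD28.

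Krt6a had 91.0 and 51.3 CPM at PWD0, 119 CPM at PWD14, 17.3 and 25.0 CPM at PWD21 and 26.3 CPM at PWD28. Krt6b, the lowest of the 4 in every spiny mouse dermis library by CPM and per transcript length, had 26.3 and 16.5 CPM at PWD0, 5.53 CPM at PWD14, 3.69 and 5.01 CPM at PWD21 and 10.9 CPM at PWD28. At PWD14 Krt6a was the 1 member above both unwounded libraries.

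From PWD0 to PWD21 all 4 fell, with no overlap, where 26.2% of 14481 genes passed and 14.2% passed as lower. Krt17 fell by 4.94 ± 0.75 on the log2 scale (edgeR, FDR = 0.00293), Krt6b by 2.43 ± 0.44 (FDR = 0.00628), Krt16 by 2.36 ± 0.33 (FDR = 0.00204) and Krt6a by 1.89 ± 0.41 (FDR = 0.0125). Without PWD21 library 1 only Krt16 passed, and without PWD21 library 2 Krt17 did not (FDR = 0.126). Without PWD0 library 1 the falls were smaller for Krt6a (-1.23, FDR = 0.00977) and Krt17 (-4.32, FDR = 3.15e-21).

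At PWD14, with 1 library, Krt17 fell by 5.12 ± 0.87 (FDR = 0.00637), the 1 member of 4 that passed where 18.5% of 15344 genes did and 10.5% as lower. Krt6a was at 0.94 ± 0.47 (FDR = 0.193), Krt16 at -0.56 ± 0.40 (FDR = 0.351) and Krt6b at -1.75 ± 0.57 (FDR = 0.0664). The Krt17 call was lost without PWD21 library 1 (FDR = 0.0602) or 2 (FDR = 0.0704), which lend this fit its spread. Krt6a passed without PWD0 library 1 (1.56, FDR = 0.0101), and Krt6b passed without PWD0 library 2 (-2.08, FDR = 0.00171) and with DESeq2 (FDR = 0.0282).

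Of the 12 keratinocyte markers 10 fell in the dermis from PWD0 to PWD21, as did 4 of 5 sebocyte and 5 of 5 adipocyte markers. Of the 13 companion layer and inner root sheath genes 3 fell and 1 rose. Among all genes 14.2% passed as lower. The keratinocyte markers, none at 0, summed to 6536 and 8424 CPM at PWD0, 1723 CPM at PWD14, 744 and 1337 CPM at PWD21 and 4109 CPM at PWD28. Krt75, a companion layer keratin, had 1456 and 1032 CPM at PWD0 and 39.0 and 53.2 CPM at PWD21, a log2 difference of -4.88 (edgeR, FDR = 0.000371). Krt15, a keratin of the bulge and basal layer, fell by 6.33 (FDR = 0.000758). The PWD0 dermis libraries differed in hair cortex markers, 9 measured genes that summed to 91.5 and 10488 CPM, while their Krt17 levels differed by less than a factor of 2. The part of follicle and keratinocyte RNA in the Krt17 level was not tested.

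At PWD21, where both layers had 2 libraries, all 4 keratins were higher in epidermis, by 104-fold for Krt6a (edgeR, FDR = 1.29e-05), 81.6-fold for Krt16 (FDR = 1.68e-05), 51.4-fold for Krt6b (FDR = 6.85e-06) and 18.5-fold for Krt17 (FDR = 0.000165). Of the 14966 genes tested 62.9% passed, and 29.4% passed as higher. Krt17 had the smallest estimate of the 4 here, as it did in both layer comparisons of the laboratory mouse; the differences between the genes were not tested.

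**Figure D3:**
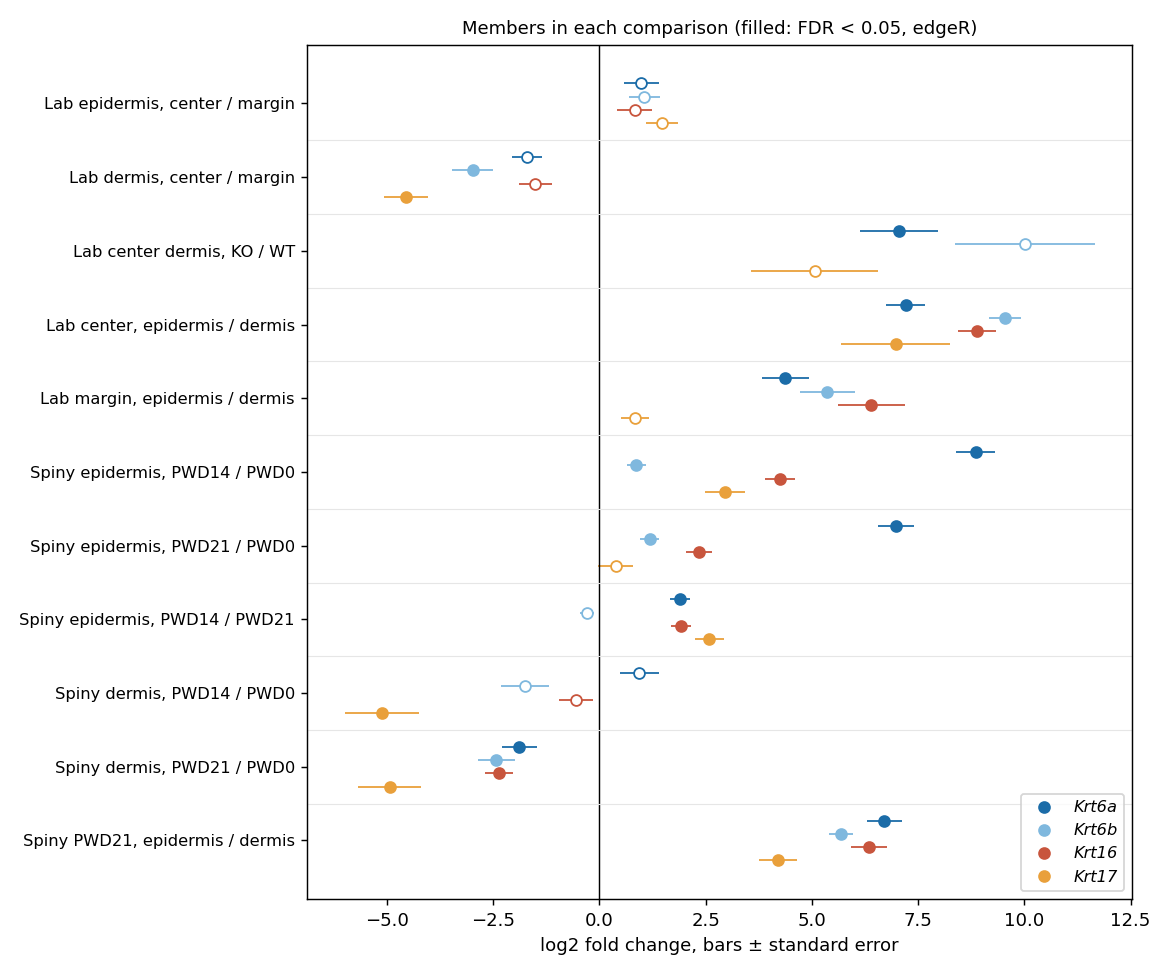
Log2 fold change and standard error of each keratin in 11 comparisons, first group over second, with filled points for FDR under 0.05; Krt16 is left out of the KO comparison because it had 0 reads in the 3 WT libraries. Apart from Krt17 at the laboratory mouse margin, the layers differ by more than the regions of the laboratory mouse epidermis in both species, and for PWD14 against PWD21 in spiny mouse epidermis Krt6b lies below 0 and the other 3 above it.

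Compared per transcript length, as RPKM, the CPM divided by the transcript length in kilobases, the order of the 4 genes was the same in all laboratory mouse epidermis libraries but not across the data. All 4 laboratory mouse epidermis libraries had Krt16 over Krt6b over Krt6a over Krt17, and Krt16 was 12.5 to 20.9 times Krt17. Of the summed RPKM of the 4 genes Krt16 held 55.7 to 60.8%, Krt6b 21.8 to 25.3%, Krt6a 13.9 to 15.8% and Krt17 2.87 to 4.52%.

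In all 12 spiny mouse libraries Krt17 was the highest, with 57.6 to 89.6% of the summed RPKM in epidermis and 61.4 to 98.3% in dermis. In epidermis its lead over Krt16 was widest at PWD0 (9.64 times) and PWD28 (8.24 times) and narrowest at PWD21 (1.99 and 2.83 times). In dermis it reached 82.3 and 46.7 times at PWD0. In epidermis Krt6a was above Krt6b by 51.9 and 35.7 times at PWD14 and by 10.6 and 8.37 times at PWD21, and below it at PWD0 (0.172 times) and PWD28 (0.764 times). In dermis Krt6a was above Krt6b on every day, by 3.40 and 3.06 times at PWD0, 21.2 times at PWD14, 4.60 and 4.91 times at PWD21 and 2.37 times at PWD28. How much of these orders reflects how well spiny mouse reads match each laboratory mouse gene was not tested.

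The laboratory mouse dermis did not have the order of the epidermis. At the margin Krt17 led in both libraries, at 1.52 and 4.09 times Krt16, and held 35.9 and 58.6% of the summed RPKM. KO library 2 had the epidermal order, with Krt16 at 7.28 times Krt17, while KO library 1 had Krt6a first and no Krt17 read.

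**Figure D4:**
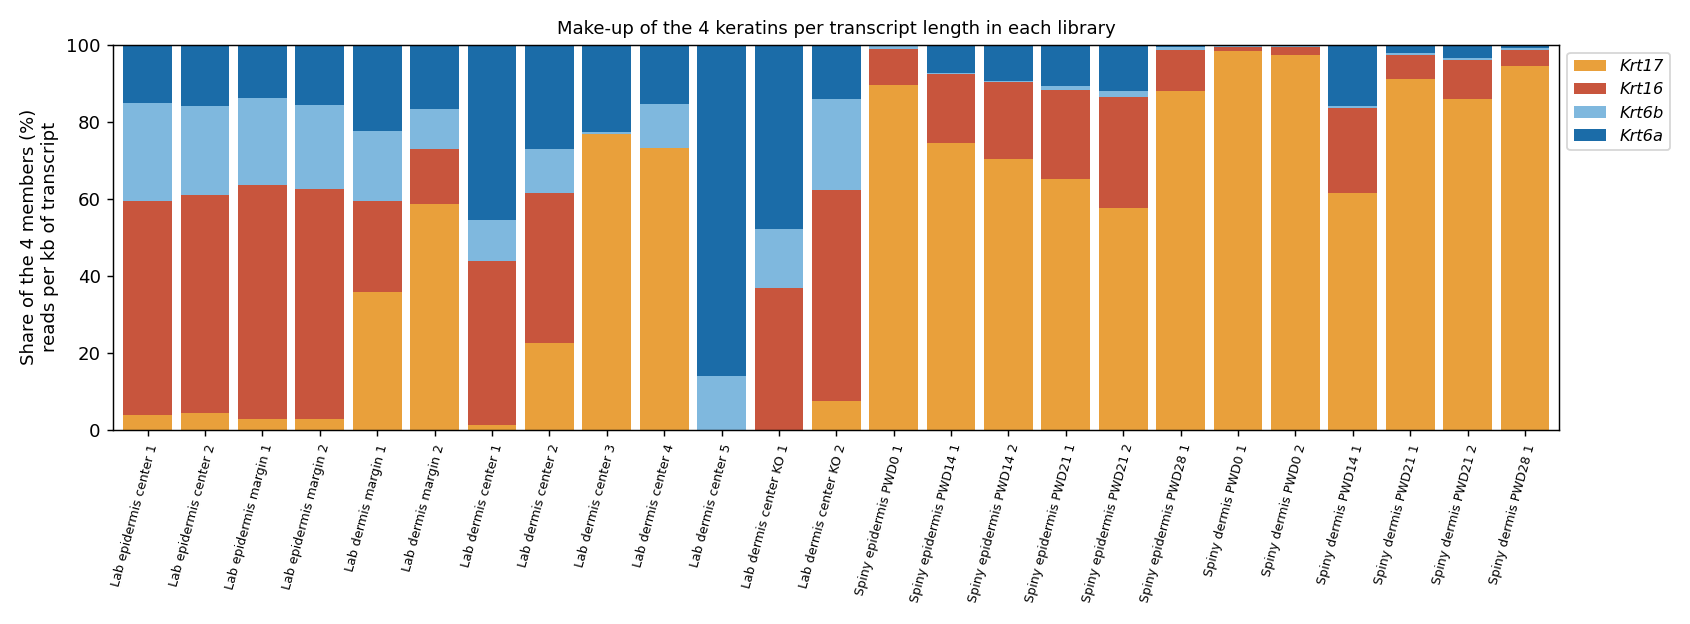
Share of each keratin in the summed reads per kilobase of the 4, in percent, for each of the 25 libraries. Krt16 leads in laboratory mouse epidermis at 55.7 to 60.8%, and Krt17 leads in every spiny mouse library.

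Among the spiny mouse libraries, the part of the gene reads that the 4 genes took up was highest in epidermis at PWD14. Among the laboratory mouse libraries it was highest in center epidermis. These parts are listed by species and not compared between them. Together they held 1.21 and 1.75% of gene reads in the laboratory mouse center, 0.525 and 0.924% at the margin, 5.44 and 3.36% in spiny mouse epidermis at PWD14 and 0.745% at PWD0. In dermis they held 0.000247 to 0.00778% in the WT center of the laboratory mouse, 0.00744 and 0.207% in the KO center and 0.955 and 1.61% in unwounded spiny mouse skin, the last nearly all Krt17.

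**Figure D5:**
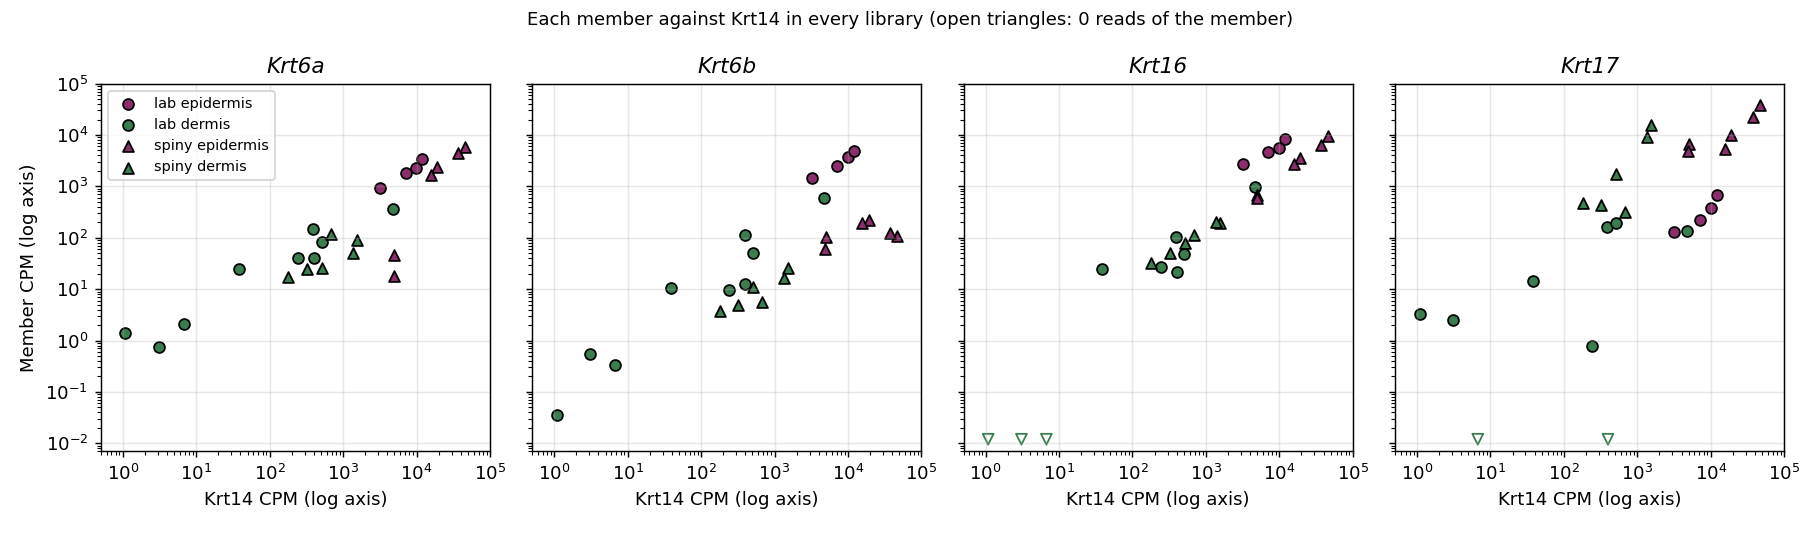
CPM of each keratin against CPM of Krt14, both on log axes, in the 25 libraries by species and layer; open triangles are libraries with 0 reads of the member. Krt16 lies along a narrow band with Krt14 in the spiny mouse, Krt6a at PWD0 and PWD28 falls below the other spiny mouse epidermis libraries, and Krt17 is spread widely against Krt14.

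Genes known to induce or bind these keratins were followed as a list of 30, among them the EGF receptor and its ligands, IL-1, STAT3, NRF2 (Nfe2l2), the AP-1 factors and stratifin (Sfn), a partner of Krt17. In laboratory mouse epidermis 1 of 29 tested rose in the center, the AP-1 gene Junb, with 232 and 238 CPM against 54.5 and 48.4 CPM in the margin (edgeR, FDR = 0.0367). Of all genes 1.24% passed, and the list median was 0.30 where that of all genes was -0.02. In dermis none of 28 passed in edgeR, with a median of -0.09 against -0.03 for all genes. At an unadjusted p under 0.05 there were 6 of the list, and 2329 of all 14698 genes tested. In the KO comparison none of 28 passed in edgeR. There 8 of the list had an unadjusted p under 0.05, as did 1631 of all 14163 genes tested. In spiny mouse epidermis 8 of 30 were higher and 10 lower at PWD14 than at PWD21, where 46.6% of all genes passed and 23.4% as higher. The EGF receptor ligand Areg had 169 and 155 CPM at PWD14 against 41.9 and 22.6 CPM (edgeR, FDR = 5.17e-05). Another, Btc, had 4.88 and 10.5 CPM against 43.3 and 64.7 CPM (FDR = 0.000266). Sfn rose from 1004 CPM at PWD0 to 5874 and 6187 CPM at PWD14 (FDR = 9.995e-06).

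Genes known to accompany these keratins in wound or hyperproliferating epidermis formed a list of 27, of which 25 were in the files. In the laboratory mouse center epidermis, where 1.24% of all genes passed, 3 of 25 rose and none fell, with a median log2 fold change of 1.86. They were Slpi, a protease inhibitor (57.9 and 90.8 CPM against 0 and 0.347 CPM, FDR = 0.0367), Sprr1a, a cornified envelope gene (log2 2.56, FDR = 0.0455), and Itga5, a fibronectin receptor subunit (log2 2.33, FDR = 0.0368). In spiny mouse epidermis 13 of 22 were higher and 4 lower at PWD14 than at PWD21, with a median of 1.03 against -0.04 for all genes. Of all genes 46.6% passed there, with 23.4% as higher. S100a9, an alarmin, had 0.378 CPM at PWD0, 2503 and 1511 CPM at PWD14, and 407 and 180.1 CPM at PWD21. In the dermis Sprr1a fell in the laboratory mouse center (log2 -3.61, edgeR, FDR = 0.0238), the 1 of 22 that passed where 0.850% of all genes did.

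Other keratins, basal, suprabasal and simple, formed a list of 17. In laboratory mouse epidermis none of 16 rose in the center and 2 fell, Krt77 (1.27 and 1.75 CPM against 34.9 and 17.4 CPM, FDR = 0.0394) and Krt23 (43.1 and 44.3 CPM against 126 and 188 CPM, FDR = 0.0375). In laboratory mouse dermis 6 of 13 fell in the center and none rose, and in spiny mouse dermis 14 of 17 fell from PWD0 to PWD21 and none rose, with medians of -3.10 and -2.67. In spiny mouse epidermis at PWD14 against PWD21, 2 of 16 were higher and 4 lower, and Krt14 was among the former (log2 1.82, FDR = 0.00014). Of the 13 companion layer and inner root sheath genes, 9 of 12 fell in the laboratory mouse center dermis, with a median of -10.39. Krt27, Krt73, Krt28 and Krt72 among them had 0 reads in both center libraries. Estimates of such genes depend on the prior count, so the size of this median is not a measured fall. In spiny mouse epidermis 9 of the 13 companion layer and inner root sheath genes were lower and 3 higher at PWD14 than at PWD21, with a median of -3.09. Of all genes 1.24% passed in laboratory mouse epidermis. Passing as lower were 0.735% in its center dermis and 14.2% in spiny mouse dermis from PWD0 to PWD21. For PWD14 against PWD21 in spiny mouse epidermis 46.6% passed, with 23.4% as higher.

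Across the 13 laboratory mouse libraries the genes most like each keratin, by Pearson's r of log2(CPM + 1), included the others of the set for Krt6a, Krt6b and Krt16 but not for Krt17. Krt16 was the most alike gene for both Krt6a (r = 0.994) and Krt6b (r = 0.993), followed for Krt6a by Krt6b (r = 0.988) and Sfn (r = 0.983), and for Krt6b by Trim29 (r = 0.990). For Krt17 they were Cst6 (r = 0.979), Klk6 (r = 0.954) and Ano9 (r = 0.953), and Krt6a ranked 439 in its list at r = 0.840. These points share layer and keratinocyte content, so r describes them only.

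Across the 12 spiny mouse libraries no member was among the 3 most alike genes of another. Krt16 was most like Krt14 (r = 0.997), which shares 96 of the 1491 read-length windows of Krt16. Krt6b was most like Krt78 (r = 0.987), Krt17 most like Cd24a (r = 0.970), and Krt6a most like Gm5414 (r = 0.991), a gene that shares 31 of the 2204 read-length windows of Krt6a. Krt6a and Krt6b were at r = 0.713.

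Neighboring genes on the chromosomes did not share these levels throughout. Krt42, the neighbor of Krt17, had a mean of 0 to 0.690 CPM over the laboratory mouse groups and a mean of 5590.3 CPM in spiny mouse epidermis at PWD14 and 1028 CPM at PWD0. Gm5478, a transcribed pseudogene beside Krt6b that shares 142 windows with Krt6a, had a mean of 120.4 CPM in spiny mouse epidermis at PWD14 and 0.903 CPM in the laboratory mouse center epidermis. Levels of Krt42 and Gm5478 are listed by species and not compared between them. How spiny mouse reads divide among these alike genes was not tested. Krt5, on the other side of Krt6a, had a mean of 6724 CPM in the laboratory mouse center epidermis and 6989.8 CPM in the margin, and in spiny mouse epidermis 8799.9 CPM at PWD0 and a mean of 9672 CPM at PWD14.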

How the data were processed

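The 25 deposited files hold whole-number counts of reads per gene symbol. Per the labels and the paper, STAR placed the reads on the laboratory mouse genome (mm10) and HTSeq counted them; these counts are raw, as the authors deposited them; the submitters' processing notes give STAR 2.4.1d and HTSeq 0.6.0. The 5 summary lines of each file, which name no gene and hold 30.2 to 42.3% of laboratory mouse and 47.1 to 75.6% of spiny mouse reads, were left out. A count of 0 allows up to 3 reads, 0.0347 to 0.529 CPM by library.

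Groups came from the labels, and the 3 center dermis libraries compared with the KO came from the library names in the study. Each comparison was fitted on the libraries it compares, except that comparisons with a day of 1 library (PWD14 or PWD21 against PWD0 in spiny mouse epidermis, PWD14 against PWD0 in its dermis) were fitted on all 6 libraries of that layer, with edgeR 4.0.16 in R 4.3.3 (TMM, filterByExpr, the quasi-likelihood test with legacy = FALSE, prior count 0.125), and p-values were adjusted by Benjamini-Hochberg over all genes tested (FDR threshold 0.05). The script was checked on simulated counts for center against margin in each laboratory mouse layer and for the KO. In the spiny mouse the check covered PWD14 against PWD21 in epidermis and PWD21 against PWD0 in dermis. The layer comparisons, the interaction and the fits on all 6 libraries of a layer were not simulated. The alternatives were DESeq2 1.42.0, RLE scaling, library size alone, leaving the low counts in, requiring 10 or more counts per library, 1 fit for all libraries of a species, all 5 WT center libraries, each library left out, and, chosen after seeing the data, the edgeR 3 estimate of the quasi-likelihood dispersion. PWD28 had 1 library a layer and was not tested.

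The members, the gene lists and the tests were chosen with earlier results of these data known. Named were the 4 members, the 3 most alike genes by r, taken from those averaging 1 CPM or more, and the neighbors in the annotation. From each list other than the cell type markers, at most the 4 genes with the largest change were named. These were taken from those that passed and did not overlap between groups. The cell type markers named singly (Pdgfrb, Fabp4, Cidec, Adipoq, Plin1 and Lep) were chosen after their values were seen. Coding sequences were aligned with Biopython 1.88. Read-length windows and their reverse complements were matched exactly to the annotated transcripts, so shared windows include antisense matches and do not model the aligner.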

Additional observations from a re-analysis of the deposited data

Results flagged for a closer look

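Over the 5 WT center dermis libraries, Krt17 in library 2 stood apart from the others. It had 14.2 CPM where the other 4 libraries had 0, 0.770, 2.47 and 3.32 CPM, and the gap to the nearest of them was 0.766 of the whole range, above Dixon's 95% critical value of 0.710 for 5 samples. For normal values from 1 population, chance alone gives such a gap in about 1 in 20 groups. Libraries 1 and 2 differed from libraries 3 to 5 in the other keratins, so that rate need not hold here. In this group 4 genes were examined, of which Krt6a, Krt6b and Krt16 gave 0.394, 0.0721 and 0.0602.

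The center-margin difference on the log2 scale was larger in epidermis than in dermis by 2.82 for Krt6a, 4.18 for Krt6b and 6.15 for Krt17, each past the threshold of the interaction test in edgeR (FDR = 0.0378, 0.00824 and 0.00613). In epidermis the estimates were positive and in dermis negative for all 4 keratins.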

How the results depend on the processing

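Of 569 recomputed values of single keratins, 499 kept their direction and their side of the threshold, 37 lost and 31 gained the call, and 2 reversed; neither of those 2 was called: Krt17 in the KO dermis was -8.53 without KO library 2 and 6.05 without library 1, and Krt17 in spiny mouse epidermis at PWD21 against PWD0 was -0.17 without PWD21 library 1 and 0.77 without library 2. Of 286 recomputed counts of called keratins or genes, 215 stayed within 1.5 times the reported count. For center against margin epidermis (0 keratins, 176 genes), DESeq2 called 2 and 1544, the fit of all laboratory mouse libraries 397 genes, the edgeR 3 estimate 0 genes, and leaving out 1 library 0 to 4 keratins and 70 to 7405 genes. For center against margin dermis (2 and 125), DESeq2 called 738 genes, all 5 WT libraries 323, the fit of all libraries 0 keratins, the edgeR 3 estimate 0 keratins and 54 genes, and leaving out 1 library 1 to 3 keratins and 19 to 241 genes. For the KO (1 and 8), DESeq2 called 3 and 520, the minimum of 10 counts 0 and 0, the fit of all libraries 444 genes, all 5 WT libraries 190 genes, the edgeR 3 estimate 0 and 2, and leaving out 1 library 0 to 4 keratins and 1 to 3353 genes. For the interaction (3 and 540), DESeq2 called 1194 genes, the minimum of 10 counts 204, the fit of all libraries 0 keratins and 116 genes, the edgeR 3 estimate 1 keratin, and leaving out 1 library 1 to 4 and 167 to 1343. Between layers, leaving out 1 library gave 4899 to 10993 genes in the center, 4508 to 7623 at the margin and 7610 to 10110 in the spiny mouse, with 4, 3 to 4 and 4 keratins. In spiny mouse epidermis it gave 3470 to 6635 genes for PWD14 against PWD21, 6197 to 7561 for PWD14 against PWD0 and 2190 to 5547 for PWD21 against PWD0, where the fit of all libraries gave 1830. In spiny mouse dermis it gave 1 to 4 keratins and 1311 to 5118 genes at PWD21, and 0 to 2 keratins and 1888 to 4219 genes at PWD14, where DESeq2, library size alone, the minimum of 10 counts and the fit of all libraries each called 2 keratins. The cause was not tested. Where 1 library was left in a group, it was taken to vary like the others. Scaled to library size alone, the share of called genes that were higher in the first group moved from 52.3 to 28.4% and from 43.8 to 20.5% for the layers of center and margin, from 50.2 to 18.9%, 46.6 to 20.7% and 46.6 to 30.9% for spiny mouse epidermis in the order above, and from 43.0 to 30.5% for its dermis at PWD14, and the median of all genes moved by over 0.1 on the log2 scale in these comparisons, to -0.73, -0.98, -0.59, -0.86, -0.15 and -0.28. No paired analysis was possible because replicate numbers were given in accession order.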
